A study of Homo sapiens with 4 samples.

Results

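Genes of the DNA replication machinery were compared on 4 whole-transcript microarrays of 2 human lines, ARP-1 and MM.1S, which derive from the plasma cell cancer multiple myeloma. The set comprised 51 listed genes that load origins, unwind DNA or work at the fork, taken as a list of gene names. This list was chosen with earlier results of these data known. Probe sets were named for 23 of the 51, and all 23 were among the 7442 of 14884 named genes that passed a filter on low mean intensity. Each gene is represented by its probe set of highest mean. The other 28 are unnamed here: ORC1, ORC2, ORC3, ORC4, ORC5, ORC6 and GMNN of licensing, the polymerase and primase genes POLA1, POLA2, PRIM1, PRIM2, POLE, POLE2, POLE3, POLD1, POLD2 and POLD3, the clamp loader RFC1, RFC2, RFC3, RFC4 and RFC5, the ligase LIG1, the single-strand binding RPA1, RPA2 and RPA3, and the chromatin assembly subunits CHAF1A and CHAF1B. Polymerases and the clamp loader could therefore not be compared with the helicase.

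The groups were MIF-KO ARP-1, CTR-KO ARP-1, MIF-KO MM.1S and CTR-KO MM.1S, with 1 array each. MIF-KO cells had been infected with lentivirus for a short hairpin RNA against MIF, a secreted inflammatory cytokine, and CTR-KO cells with a control hairpin. Both were cultured in serum-containing RPMI medium and sorted for the green marker, so KO names a hairpin knockdown in sorted cells, although the genotype label of the controls reads knockout. The labels do not say whether any arrays came from separate cultures or infections, so p-values measure only the spread between these 4 arrays.

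Origins are licensed when the origin recognition complex, CDC6 and CDT1 load the ring of MCM proteins onto DNA in G1. CDC45 and the GINS complex join the ring at the start of S phase and form the active CMG helicase, and the sliding clamp PCNA then holds the polymerases on the unwound DNA. In cycling cells, many of these genes are transcribed together at the G1 to S boundary, where E2F transcription factors are known to act. In a bulk sample, fewer cells in S phase and less RNA per cell cannot be told apart.

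Each array's title and genotype label give the same hairpin, but for ARP-1 the description of either array gives the other one. Groups follow the titles. MIF had an intensity of 541 in MIF-KO ARP-1, against 1092 in CTR-KO ARP-1, and of 405 in MIF-KO MM.1S, against 1012 in CTR-KO MM.1S, so as titled the MIF-KO array was the lower in both lines. Over both lines MIF differed by -1.17 (SE 0.29, n = 2 lines, limma unadjusted p = 0.0104, limma adjusted p = 0.99995). Its unadjusted p was the smallest of the 7442 tested genes. Exchanging the ARP-1 arrays makes the MIF difference over both lines -0.15. The ARP-1 difference of -1.01 then changes sign, while that in MM.1S stays at -1.32. Over the 7442 genes, log2 intensities of MIF-KO ARP-1 correlated most with CTR-KO MM.1S (r = 0.977), and those of CTR-KO ARP-1 most with MIF-KO MM.1S (r = 0.966). Within a line the arrays correlated at r = 0.932 (ARP-1) and r = 0.973 (MM.1S). These are correlations across genes, which are not independent replicates. All 6 named plasma cell markers of 9 listed passed the filter on low means (41.8 to 4380 on MIF-KO ARP-1), and the 12 named markers of B, T, myeloid and stromal cells of 24 listed lay between 5.59 and 41.8 on that array, with 1 of the 12 passing the filter. Summed over those 12, intensity was 166.5 in MIF-KO ARP-1, against 184 in CTR-KO ARP-1, and 170.0 in MIF-KO MM.1S, against 161 in CTR-KO MM.1S, and none was listed at 0.

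The E2F letters in the promoters of these genes are shown first. Whether they bear on the pattern that all 23 genes shared across the arrays was not tested. Promoter windows from RefSeq (GRCh38.p14), from 250 bases before to 50 after each start, were available for 20 of the 23 genes, in 27 windows. The letters TTTCCCGC or TTTGGCGC, which E2F factors can bind, were searched on both strands, and overlapping matches were counted. They occurred in a window of 13 of the 20 genes (65%), against 4.72% of the 5948 tested genes with a window and 1 of 20 genes with a window on a list of mitosis genes. On the list of nucleotide and histone supply, 3 of 11 genes with a window held them (27.3%). Of the 28 genes unnamed here, 25 had a window and 7 of these held the letters, so the share over all 45 listed genes with a window was 44.4%. TTTGAA, an element typical of mitosis genes, was present for 1 of the 20 replication genes and 14 of the 20 mitosis genes, against 13.4% of tested genes. CCAAT was present for 13 of the 20 replication genes, against 43% of tested genes, and GGGCGG for 17 of the 20, against 78.1%. A match describes the letters alone and is not a binding site.

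The 200 bases before the start are given for 5 genes, on the gene's strand and 5′ to 3′, with the E2F letters in capitals. GINS2 and TIPIN had the widest gap between the lines among the 23 genes. PCNA is the sliding clamp, MCM6 had the narrowest gap, and MCM10 had the widest gap among genes without a match. TIPIN and PCNA have a further window each, which holds no match, and the window with more matches is shown for both. The GINS2 window is chr16:85688955-85689154 (minus strand), the TIPIN window chr15:66356686-66356885 (minus), the PCNA window chr20:5126623-5126822 (minus), the MCM6 window chr2:135876444-135876643 (minus) and the MCM10 window chr10:13161358-13161557 (plus).
GINS2: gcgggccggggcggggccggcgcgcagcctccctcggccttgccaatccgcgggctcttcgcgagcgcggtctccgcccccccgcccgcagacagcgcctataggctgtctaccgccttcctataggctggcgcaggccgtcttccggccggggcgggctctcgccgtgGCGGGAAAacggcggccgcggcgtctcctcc
TIPIN: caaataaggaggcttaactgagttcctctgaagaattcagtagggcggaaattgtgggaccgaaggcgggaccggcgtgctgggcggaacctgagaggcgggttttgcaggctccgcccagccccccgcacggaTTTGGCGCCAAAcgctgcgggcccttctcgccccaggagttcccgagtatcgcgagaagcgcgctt
PCNA: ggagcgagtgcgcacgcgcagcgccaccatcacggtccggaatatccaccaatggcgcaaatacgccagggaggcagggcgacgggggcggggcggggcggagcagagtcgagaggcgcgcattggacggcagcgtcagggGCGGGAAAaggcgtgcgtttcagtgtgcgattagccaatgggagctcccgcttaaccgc
MCM6: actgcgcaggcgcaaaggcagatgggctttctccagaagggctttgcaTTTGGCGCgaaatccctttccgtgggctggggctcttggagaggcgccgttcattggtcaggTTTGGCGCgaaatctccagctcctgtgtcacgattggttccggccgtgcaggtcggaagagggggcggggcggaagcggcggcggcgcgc
MCM10: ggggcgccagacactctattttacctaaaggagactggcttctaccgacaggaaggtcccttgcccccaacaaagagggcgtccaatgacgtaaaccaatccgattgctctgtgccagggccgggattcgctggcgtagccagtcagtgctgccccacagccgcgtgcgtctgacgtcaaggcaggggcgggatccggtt
The match begins 31 bases before the start in GINS2 and 59 in PCNA. TIPIN holds the letters on both strands in overlapping copies, beginning 66 and 62 bases before the start, and MCM6 holds separate copies 152 and 90 bases before it. The gap between lines, as the MM.1S difference minus the ARP-1 difference, had a median of 1.55 (from 0.51 to 3.39) over the 13 genes with a match and of 1.92 (from 0.63 to 2.47) over the 7 genes without (CDC45, DBF4, FEN1, MCM10, MCM2, TIMELESS and WDHD1). The ranges overlap.

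In ARP-1 every one of the 23 replication genes had a lower intensity with the MIF hairpin than with the control hairpin, and in MM.1S every one had a higher intensity with it. The median log2 difference, MIF-KO minus CTR-KO, was -1.03 in ARP-1 (from -1.97 to -0.31) and 0.76 in MM.1S (from 0.10 to 1.42). Over all tested genes these medians were -0.03 and 0.04, with 3891 of the 7442 lower in ARP-1 and 4098 higher in MM.1S. In ARP-1, 20 of the 23 were at least 1.5-fold lower, a size reached by 11.9% of tested genes, and 12 were at least 2-fold lower, against 2.9%. In MM.1S, 17 of the 23 were higher by 1.5-fold or more, against 5.12%, and 2 (GINS2 and TIPIN) reached 2-fold, against 0.618%. The same 17 passed 1.5-fold in opposite directions in the lines, against 3.24% of tested genes. With 1 array per condition in a line, these differences have no replicate check. With the ARP-1 arrays exchanged, as their descriptions have them, the ARP-1 median is 1.03 and the MM.1S values stand as given.

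**Figure D1:**
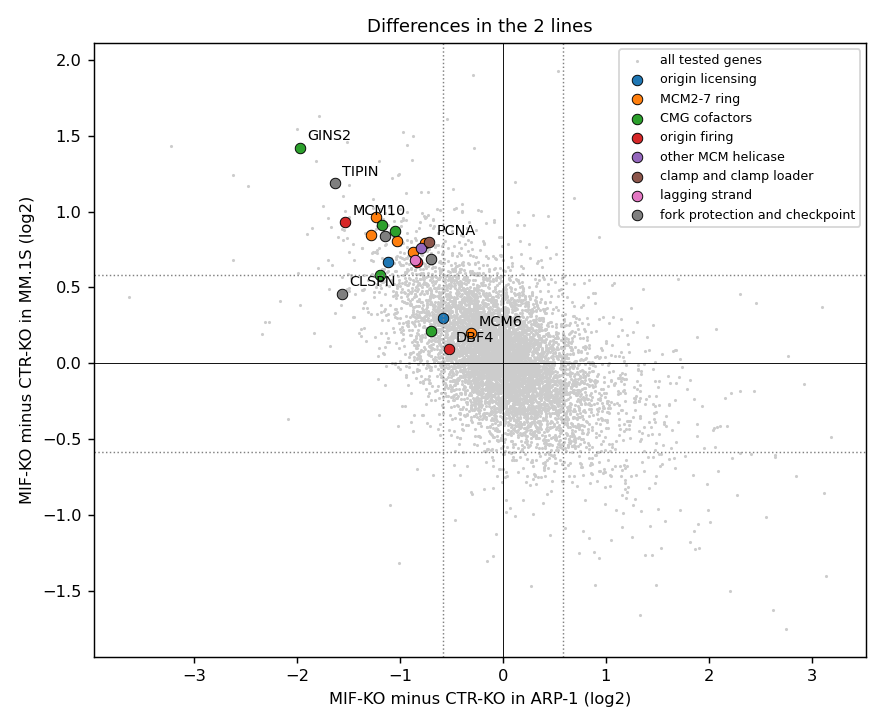
Each point is a gene, with its MIF-KO minus CTR-KO log2 difference in ARP-1 on the x axis and in MM.1S on the y axis. Grey points are the 7442 tested genes, coloured points the 23 replication genes by role, and dotted lines mark 1.5-fold. All 23 lie to the left of 0 on the x axis and above 0 on the y axis, with GINS2 at -1.97 and 1.42 and MCM6 at -0.31 and 0.20.

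The pattern across arrays was the same for all 23 genes. MIF-KO MM.1S and CTR-KO ARP-1 both lay above CTR-KO MM.1S and MIF-KO ARP-1, an order held by 29.9% of tested genes. The highest of the 4 arrays was CTR-KO ARP-1 for 14 genes and MIF-KO MM.1S for 9, while 32.1% and 22.3% of tested genes peaked there. The lowest was MIF-KO ARP-1 for 20 genes and CTR-KO MM.1S for 3 (MCM5, FEN1 and WDHD1), against 29.4% and 24.0% of tested genes. Relative to each gene's mean over the arrays, the ARP-1 arrays had medians of -0.51 with the MIF hairpin and 0.49 with the control hairpin, and the MM.1S arrays of 0.42 with the MIF hairpin and -0.32 with the control hairpin. Of the sum of squares between arrays in the 23 genes, 91.9% lay along the difference in response between lines, 4.38% along condition and 3.70% along line, and over all tested genes the first share was 55%. These shares hold for groups as titled. With the ARP-1 arrays exchanged, those of response difference and of condition trade places by construction.

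**Figure D2:**
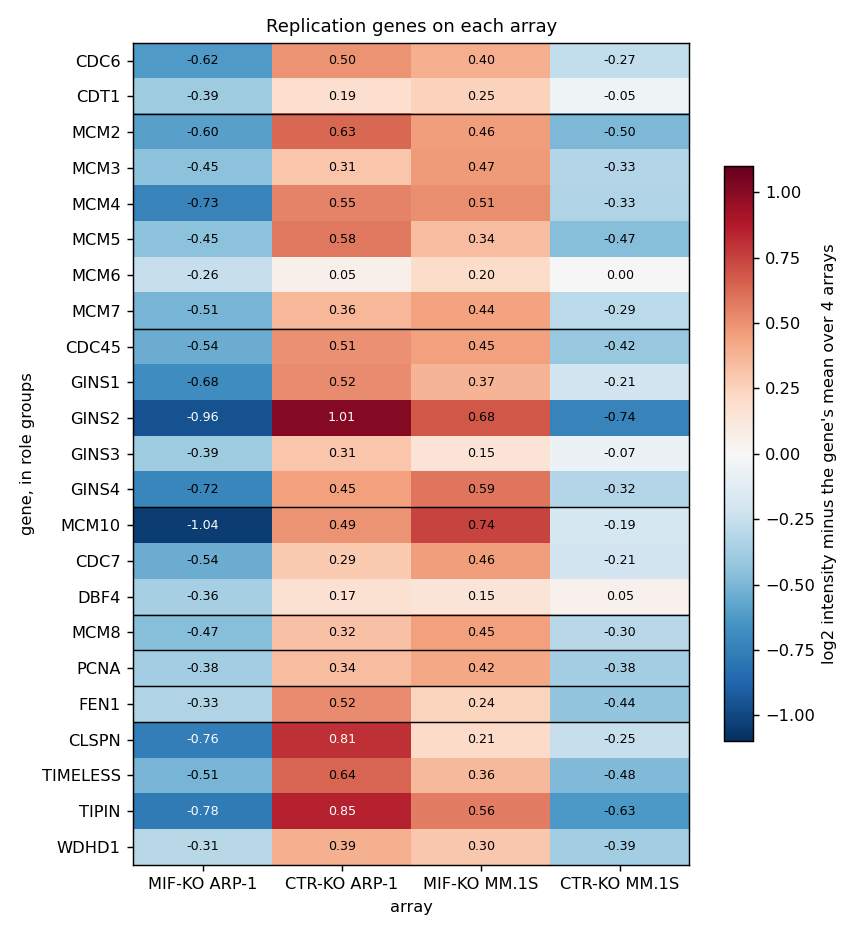
Each cell gives a gene's log2 intensity on 1 array minus its mean over the 4 arrays, with genes down the page in role groups separated by lines and arrays across. MIF-KO MM.1S and CTR-KO ARP-1 are above the gene's mean in all 23 genes, and MIF-KO ARP-1 is below it in all 23, with the lowest value at -1.04 (MCM10).

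Of the licensing factors, CDC6 and CDT1 were named. CDC6, the ATPase that loads the MCM ring with the origin recognition complex, had an intensity of 147 in MIF-KO ARP-1, against 319 in CTR-KO ARP-1, and of 298 in MIF-KO MM.1S, against 188 in CTR-KO MM.1S. CDT1, which brings the ring to the origin and is destroyed in S phase, had 216 in MIF-KO ARP-1, against 322 in CTR-KO ARP-1, and 337 in MIF-KO MM.1S, against 274 in CTR-KO MM.1S. CDT1 was the less displaced of these, at -0.58 in ARP-1 and 0.30 in MM.1S, within 1.5-fold in both lines. CDC6 differed by -1.12 and 0.67.

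The MCM ring is the motor of the helicase and is built from 6 related ATPases. Its median difference was -0.95 in ARP-1 and 0.80 in MM.1S, with 5 of the 6 at least 1.5-fold apart in each line. MCM2 had 266 in MIF-KO ARP-1, against 624 in CTR-KO ARP-1, and 555 in MIF-KO MM.1S, against 285 in CTR-KO MM.1S. MCM4 had 437 in MIF-KO ARP-1, against 1061 in CTR-KO ARP-1, and 1037 in MIF-KO MM.1S, against 577 in CTR-KO MM.1S. MCM5 had 334 in MIF-KO ARP-1, against 682 in CTR-KO ARP-1, and 577 in MIF-KO MM.1S, against 330.5 in CTR-KO MM.1S. For these subunits CTR-KO MM.1S and MIF-KO ARP-1 were the low arrays, clear of the others. MCM3 differed by -0.76 and 0.79 and MCM7 by -0.87 and 0.73 in ARP-1 and MM.1S.

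MCM6 stood nearest to even within the ring. Its intensity was 592 in MIF-KO ARP-1, against 735 in CTR-KO ARP-1, and 814 in MIF-KO MM.1S, against 708 in CTR-KO MM.1S. MIF-KO ARP-1 was the lowest array and MIF-KO MM.1S the highest. Its differences of -0.31 and 0.20 were the smallest gap between the lines of the 23 genes.

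CDC45 and the GINS subunits, which turn the loaded ring into the active helicase, had medians of -1.17 in ARP-1 and 0.87 in MM.1S. All 5 were at least 1.5-fold lower in MIF-KO ARP-1, and 3 of the 5 passed 1.5-fold upward in MIF-KO MM.1S. GINS2 had 73.9 in MIF-KO ARP-1, against 289.7 in CTR-KO ARP-1, and 231 in MIF-KO MM.1S, against 86.1 in CTR-KO MM.1S. The MIF-KO level was 25.5% of CTR-KO in ARP-1 and 268% in MM.1S. GINS2 had the widest gap among the 23 genes and rank 7 among all 7442.

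The rest of the complex followed with smaller differences. GINS4 had 77.6 in MIF-KO ARP-1, against 175 in CTR-KO ARP-1, and 192 in MIF-KO MM.1S, against 102 in CTR-KO MM.1S. CDC45 had 147 in MIF-KO ARP-1, against 304 in CTR-KO ARP-1, and 293 in MIF-KO MM.1S, against 160.3 in CTR-KO MM.1S. GINS3 had 162 in MIF-KO ARP-1, against 262 in CTR-KO ARP-1, and 235 in MIF-KO MM.1S, against 203 in CTR-KO MM.1S. GINS3 was thus 61.6% of CTR-KO in ARP-1 and 116% in MM.1S, and with GINS2 it spans the sizes of difference among these 5 genes. GINS1 differed by -1.20 in ARP-1 and by 0.58 in MM.1S, which is just within 1.5-fold.

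MCM10, CDC7 and DBF4 act when licensed origins fire. MCM10, which binds the ring and is needed for its activation, had 252 in MIF-KO ARP-1, against 732 in CTR-KO ARP-1, and 869 in MIF-KO MM.1S, against 455 in CTR-KO MM.1S. CDC7, the kinase that phosphorylates the ring, had 176 in MIF-KO ARP-1, against 313 in CTR-KO ARP-1, and 353 in MIF-KO MM.1S, against 222 in CTR-KO MM.1S. DBF4, the regulatory subunit that activates CDC7, had 355 in MIF-KO ARP-1, against 512 in CTR-KO ARP-1, and 505 in MIF-KO MM.1S, against 473 in CTR-KO MM.1S. In DBF4 only MIF-KO ARP-1 stood apart, and the MM.1S difference of 0.10 was the smallest of the 23 genes there. The kinase and its activator thus differed in size: -0.83 and 0.67 for CDC7, and -0.53 and 0.10 for DBF4.

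MCM8, a helicase outside the ring that is known for repair by recombination, had 778 in MIF-KO ARP-1, against 1349 in CTR-KO ARP-1, and 1475 in MIF-KO MM.1S, against 873 in CTR-KO MM.1S. PCNA had 646 in MIF-KO ARP-1, against 1062 in CTR-KO ARP-1, and 1126 in MIF-KO MM.1S, against 648 in CTR-KO MM.1S. FEN1, the flap endonuclease that trims Okazaki fragments, had 214 in MIF-KO ARP-1, against 387 in CTR-KO ARP-1, and 319 in MIF-KO MM.1S, against 199 in CTR-KO MM.1S. For PCNA and FEN1 the low arrays of the lines nearly coincided. PCNA, at -0.72 and 0.80, was with MCM3 the only gene of the 23 whose difference was larger in MM.1S than in ARP-1.

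Fork protection and checkpoint genes had the largest ARP-1 median of the role groups with more than 1 named gene, -1.36, and a median of 0.76 in MM.1S. TIPIN, which with TIMELESS forms the complex that keeps the fork from stalling, had 106 in MIF-KO ARP-1, against 327 in CTR-KO ARP-1, and 268 in MIF-KO MM.1S, against 117 in CTR-KO MM.1S. TIMELESS had 151 in MIF-KO ARP-1, against 335 in CTR-KO ARP-1, and 276 in MIF-KO MM.1S, against 154 in CTR-KO MM.1S. In both partners the low arrays, CTR-KO MM.1S and MIF-KO ARP-1, lay close together. TIPIN was at 32.3% of CTR-KO in ARP-1 and 228% in MM.1S, and TIMELESS at 45.1% and 179%.

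CLSPN, the mediator that lets ATR activate CHEK1, had 91.0 in MIF-KO ARP-1, against 269 in CTR-KO ARP-1, and 178 in MIF-KO MM.1S, against 129 in CTR-KO MM.1S. Here CTR-KO ARP-1 was the highest array, followed by MIF-KO MM.1S. The difference was -1.56 in ARP-1 and 0.46 in MM.1S, so this gene was the least balanced of the group. A lower-level CLSPN probe set, below the median of all gene means, differed by -0.44 and 0.23, and with the mean of its probe sets the ARP-1 difference is -1.001. WDHD1, which links the helicase to the priming polymerase, had 179 in MIF-KO ARP-1, against 292 in CTR-KO ARP-1, and 273 in MIF-KO MM.1S, against 169.95 in CTR-KO MM.1S.

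The size of the ARP-1 difference and that of the MM.1S difference went together over the 23 genes, with Pearson r = -0.75 and Spearman rho = -0.69. These genes share the 4 arrays, and the values are a description. In 21 of the 23 the ARP-1 difference was the larger, as it was in 4776 of the 7442 tested genes. The gap between lines ran weakly with mean level (r = -0.35).

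Averaged over both lines, the question was which genes differ between MIF-KO and CTR-KO cells. The limma fit with cell line as a term called 0 of the 23 genes at an adjusted p below 0.05, and 0% of all 7442 tested genes, with 29 of all genes but 0 of the 23 at an unadjusted p below 0.05. On simulated data this fit missed nearly all 2-fold changes, so 0 calls do not show that differences of that size are absent. The median of the fitted differences over the 23 genes was -0.13, against 0.01 over all tested genes. The lowest limma p of the 23 belonged to CLSPN, with a mean difference of -0.55 (SE 0.54, n = 2 lines, 95% interval from -1.94 to 0.83, limma adjusted p = 0.99995). GINS3 differed by -0.24 (SE 0.36) and DBF4 by -0.22 (SE 0.33). Of 2 genes with a positive mean, PCNA had 0.04 (SE 0.44) and MCM3 0.02 (SE 0.45). In this fit the disagreement of the lines is the error, and the interval of GINS2 ran from -2.36 to 1.81. With the ARP-1 arrays exchanged, limma called 18 of the 23 higher (3.39% of tested genes were called higher), led by GINS2 at 1.70 (SE 0.20, limma adjusted p = 0.0053). MIF differed by -0.15 over both lines in that arrangement, with opposite signs in the lines. MCM6, DBF4, GINS3, CDT1 and WDHD1 were not called there, with limma adjusted p from 0.052 (WDHD1) to 0.38 (MCM6).

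**Figure D3:**
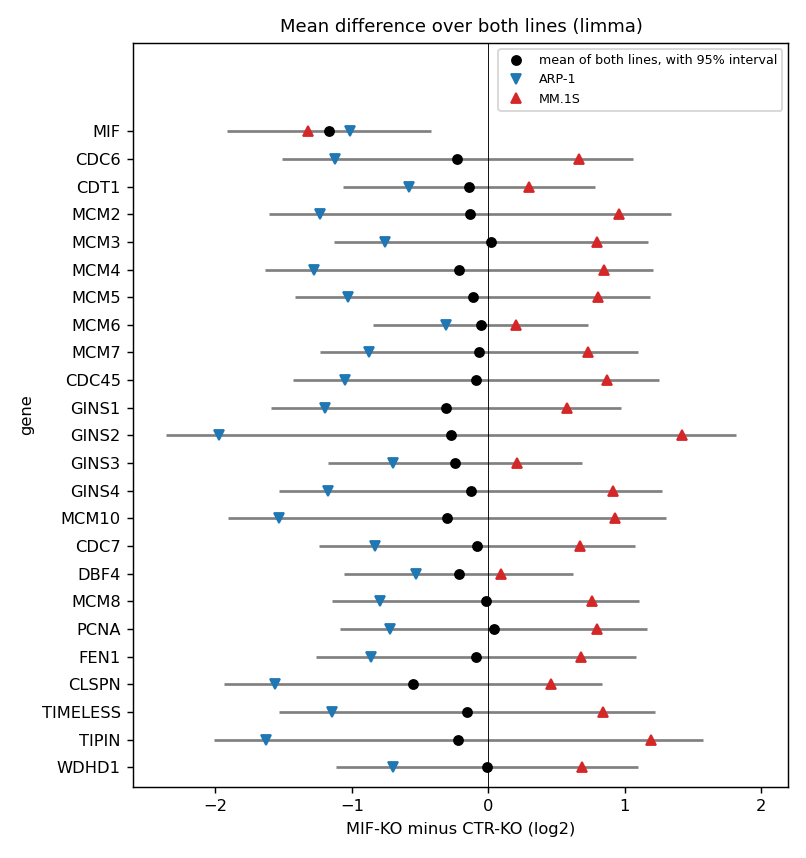
For MIF and each of the 23 replication genes, the black point is the mean MIF-KO minus CTR-KO log2 difference over both lines with its 95% interval from limma, and triangles are the differences in ARP-1 (blue) and MM.1S (red). The interval of MIF runs from -1.92 to -0.42, while all 23 intervals of the replication genes include 0 and their triangles lie on opposite sides of it.

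With hairpins as titled, the direction of the difference between the lines depended on the hairpin. The ARP-1 descriptions give the opposite hairpins, and the comparisons under each hairpin were not repeated with them. Under the MIF hairpin, MM.1S minus ARP-1 had a median of 0.95 over the 23 genes, with 19 at least 1.5-fold higher in MM.1S, against 8.22% of tested genes. Under the control hairpin the median was -0.77, with 18 at least 1.5-fold lower in MM.1S, against 11.1%. These comparisons use the same 4 arrays as those above. Averaged over the hairpins, the line difference had a median of 0.13 (from -0.19 for FEN1 to 0.55 for MCM10), and limma called 0 of the 23 genes and 0% of tested genes, with 87 of all genes and 0 of the 23 at an unadjusted p below 0.05.

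Other genes of the pathway were taken from lists of known origin and fork factors, checkpoint genes, and suppliers of nucleotides and histones. Over both lines limma called 0 of these genes, with 0 at an unadjusted p below 0.05 and 0 of all genes called without the variance trend. Of 14 tested origin and fork factors, 8 were lower by 1.5-fold or more in MIF-KO ARP-1 and 1 higher, while in MIF-KO MM.1S 6 were higher by as much and 0 lower, with medians of -0.64 and 0.38. DSCC1, of an alternative clamp loader, had 45.9 in MIF-KO ARP-1, against 132 in CTR-KO ARP-1, and 109 in MIF-KO MM.1S, against 39.7 in CTR-KO MM.1S. DNA2, a nuclease of Okazaki fragments, differed by -1.03 and 0.80, LRWD1, which binds the origin recognition complex, by -1.08 and 0.59, and the helicase RECQL4 by -1.18 and 0.34. CTC1, of the telomere replication complex, was the gene that was higher in ARP-1, at 0.73, and it was named after its values were seen.

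The 9 checkpoint genes were less displaced, with medians of -0.41 in ARP-1 and 0.29 in MM.1S. In MIF-KO ARP-1, 4 of them were lower by 1.5-fold, against 11.9% of tested genes. In MIF-KO MM.1S, 2 were higher by as much, against 5.12%. The first 4 named have the widest gaps between lines. The effector kinase CHEK1 differed by -0.71 and 0.69, ATRIP, the partner of ATR, by -0.61 and 0.62, ATR itself by -0.35 and 0.42, and RAD9A of the checkpoint clamp by -0.83 and 0.14. By any amount, 6 of the 9 were lower in MIF-KO ARP-1, against 3891 of the 7442 tested genes. ETAA1, an activator of ATR, ran the other way in both lines at 0.30 and -0.46, and RAD17 and HUS1 had ARP-1 differences of 0.06 and 0.02, these 3 being named after their values were seen. The 9 tested genes of nucleotide and histone supply had medians of -0.79 and 0.54. Of these, 7 were lower by 1.5-fold in MIF-KO ARP-1, against 11.9% of tested genes. In MIF-KO MM.1S, 2 were higher by as much, against 5.12%. UHRF1, which guides maintenance methylation behind the fork, differed by -1.004 and 1.02, the histone chaperone NASP by -1.19 and 0.54, thymidylate synthase TYMS by -0.94 and 0.69, and the maintenance methyltransferase DNMT1 by -0.95 and 0.57.

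Mitosis genes, which peak later in the cycle, lay closer to 0. Of 20 tested, 0 were 1.5-fold apart in either line, with medians of -0.25 in ARP-1 and 0.17 in MM.1S. Of all 7442 tested genes, 888 were lower and 809 higher by 1.5-fold in ARP-1, and 215 were lower and 381 higher in MM.1S. With the MIF hairpin, 18 of the 20 were lower in ARP-1 and 15 were higher in MM.1S, against 3891 and 4098 of all tested genes. The widest gaps between lines were those of cyclin B1 (CCNB1) at -0.53 and 0.52, the kinase TTK at -0.51 and 0.37, cyclin A2 (CCNA2) at -0.37 and 0.42, and CDK1 at -0.36 and 0.35. Other mitosis genes were lower in both lines, among them BIRC5 at -0.45 and -0.28 and BUB1 at -0.33 and -0.21, which are named after their values were seen. The gap between lines had a median of 0.33 over the mitosis genes and of 1.78 over the replication genes, against 0.06 over all tested genes. Whether the lists differ in this gap was not tested.

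Some plasma cell markers shared the direction of the replication genes. CD38, a surface enzyme of plasma cells, differed by -1.44 in ARP-1 and by 0.46 in MM.1S, and the surface proteoglycan SDC1 by -1.36 and 0.48. MZB1, a chaperone of immunoglobulin secretion, differed by 0.45 and -0.63, and XBP1, a factor of the secretory programme, by 0.51 and -0.05. Over the 6 tested markers the medians were 0.16 and 0.18, and summed intensity was 6821 in MIF-KO ARP-1, against 5780.0 in CTR-KO ARP-1, and 5896 in MIF-KO MM.1S, against 6004 in CTR-KO MM.1S. CD8A, the tested marker of another cell type, differed by -0.32 and 0.42. Their part in the result was not tested.

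**Figure D4:**
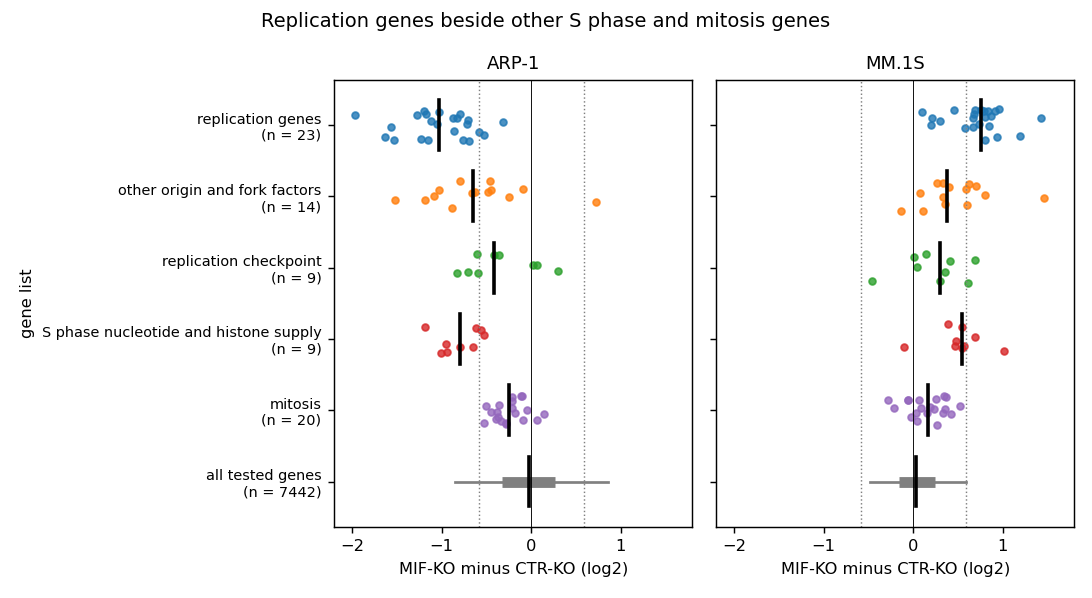
Points are genes of each list at their MIF-KO minus CTR-KO log2 difference in ARP-1 (left) and MM.1S (right), black bars are list medians and dotted lines mark 1.5-fold. For all tested genes, the thick grey bar spans the central 50% and the thin line the central 90%. The replication genes have medians of -1.03 and 0.76, and the mitosis genes of -0.25 and 0.17, with every mitosis gene within 1.5-fold.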

How the data were processed

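The authors deposited linear intensities (from 2.74 to 15935) of 53617 probe sets on 4 arrays. RMA and limma are named, without version or role, per the submitters' processing notes. The sources used here give no background step, annotation or build. Log2 of the deposited values was taken without a pseudocount. A platform table named 16098 probe sets, and 37519 are unnamed here. All 16098 matched RefSeq (GRCh38.p14) by Entrez ID. For 779 genes with several probe sets, that of the highest mean was used. Testing kept genes whose mean log2 value reached the median over genes, 4.97.

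limma (version 3.58.1, R 4.3.3) was fitted over 7442 genes with cell line and condition, then eBayes with trend and Benjamini-Hochberg adjustment. It leaves 1 residual degree of freedom, and the prior added 3.99. Cell line pairs the arrays by the labels, though deviations of same-line arrays correlated at r = -0.37 across genes. On simulated data the fit missed nearly all 2-fold and the larger share of 4-fold changes, recovered most larger ones, and made more false calls than the 0.05 threshold allows. Arrays carry no depth or detection call, so their number limits precision.

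The genes and lists were chosen with earlier results of these data known. Array values are printed for up to 3 genes per role with the widest gap between lines and that with the narrowest, and up to 4 genes per other list are named by the size of the gap, in either direction. Fitted statistics are given for up to 3 genes per direction with the smallest p, and those of GINS2 were added after its values were seen. Alternatives concerned the ARP-1 labels, filter, probe sets, scaling, cell line term, variance trend, fold and left-out arrays.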

Additional observations from a re-analysis of the deposited data

Results flagged for a closer look

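With the ARP-1 arrays exchanged, as their descriptions have them, 0 genes are opposite at 1.5-fold. With groups as titled, the lines moved in opposite directions with 1 pair of arrays each, so the difference between them was not tested. This holds for the median of the replication genes, -1.03 in ARP-1 and 0.76 in MM.1S, and for 17 genes at least 1.5-fold apart in both lines. Their gaps, as the MM.1S minus the ARP-1 difference on the log2 scale, were 3.39 for GINS2, 2.82 for TIPIN, 2.47 for MCM10, 2.19 for MCM2, 2.13 for MCM4, 2.08 for GINS4, 1.99 for TIMELESS and 1.92 for CDC45. They were 1.83 for MCM5, 1.79 for CDC6, 1.60 for MCM7, 1.55 for MCM3 and for MCM8, 1.54 for FEN1, 1.51 for PCNA, 1.502 for CDC7 and 1.39 for WDHD1.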

How the results depend on the processing

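The exchange of the ARP-1 arrays, which follows their descriptions in place of their titles, turns every ARP-1 difference by construction. The median then is 1.03 in ARP-1 and 0.89 over both lines, 0 genes are 1.5-fold lower in ARP-1 and 0 are opposite. There limma calls 18 in place of 0. MIF differs by -0.15 over both lines in place of -1.17, with opposite signs in the lines. The ARP-1 differences at least 1.5-fold in size become 1.05 for CDC45, 1.12 for CDC6, 0.83 for CDC7, 1.56 for CLSPN, 0.86 for FEN1, 1.20 for GINS1, 1.97 for GINS2, 0.70 for GINS3, 1.17 for GINS4, 1.54 for MCM10, 1.23 for MCM2, 0.76 for MCM3, 1.28 for MCM4, 1.03 for MCM5, 0.87 for MCM7, 0.79 for MCM8, 0.72 for PCNA, 1.15 for TIMELESS, 1.63 for TIPIN and 0.70 for WDHD1. Leaving out 1 line's pair of arrays gives a median from -1.03 (without MM.1S) to 0.76 (without ARP-1) in place of -0.13, since the lines oppose. At 2-fold, 12 genes are lower in MIF-KO ARP-1, 2 higher in MIF-KO MM.1S and 2 opposite. Under other filters, probe set means, equal array medians, quantile normalization, no cell line block, no variance trend or without any 1 array, limma called 0 of the replication genes, and where counts at 1.5-fold were computed they ran from 19 to 21 (lower in ARP-1) and from 16 to 17 (higher in MM.1S, and opposite). With probe set means GINS4 fell below the filter, and the stricter filter also left 22 of the 23 genes. In fits without 1 array, condition and cell line were each fitted alone, so they are partly mixed. The lone array of a group is there assumed to vary like the others. The interaction of line and hairpin has 0 residual degrees of freedom.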
